A study of Nothobranchius furzeri with 10 samples.

Results

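The genes described here are those whose level was higher in every exercised brain than in any control brain of the turquoise killifish, Nothobranchius furzeri. A gene was taken when its mean over the 10 libraries was at least 5 CPM (counts per 1000000 counts of the library), its lowest exercise value lay above its highest control value, and its exercise mean was at least 1.2 times its control mean. This gave 86 of the 26739 genes in the deposited count table, so the upper bound of 300 genes set for the choice was not reached. Because these same values chose the genes, their levels, ratios and separation are given as a description with no test.

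RNA was sequenced from brains of males aged 10 weeks, in 5 libraries of fish that had swum in a swim tunnel and 5 libraries of fish with no perturbation. Every fish of both groups belonged to line 4010 and carried Tg(mylz2:egfp,tfam), a transgene whose name places egfp and tfam under the promoter of a skeletal muscle myosin light chain gene. There was thus no group without the transgene. The labels give no duration, speed or timing of the swimming, and no label ties a library to a fish of its own, so the spread between libraries may be technical in part.

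The turquoise killifish is an annual fish with a very short natural life and is kept as a model of vertebrate ageing. In vertebrates, bouts of physical exercise are known to be followed in the brain by activity-dependent transcription in neurons, by growth factor signalling and by changes in blood supply and energy metabolism. The product of tfam packages mitochondrial DNA and takes part in its transcription. None of these programmes could be looked up here, because the files do not pair their identifiers with gene names and 0 of the 26739 were found in the table of RefSeq genes. Genes are therefore called by their rank in the ratio of exercise mean to control mean, and 2 are given by identifier. For the same reason the brain label was not compared with marker genes of brain cells, and no sequence is shown. In RNA of bulk brain tissue, a change in the number of cells of a type and a change in RNA per cell cannot be told apart.

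Each library held from 21.2 M to 38.1 M gene counts (M, 1000000), with a mean of 29.5 ± 4.95 M under exercise and of 24.8 ± 2.88 M without it (SD, n = 5 each). The 86 genes together made up 0.450% ± 0.0121 of an exercise library and 0.341% ± 0.00964 of a control library (SD, n = 5 each). Their lowest raw count in any library was 76. Within groups their variance was a median of 5.18 times that of counting alone in exercise libraries and 5.66 times in control libraries. For all genes with a mean of at least 5 CPM these medians were 6.91 and 6.64 times. Differences between libraries of a group were thus mostly beyond counting error. The exceptions were 8 of the 86 genes in exercise libraries and 7 in control libraries, with a variance at or under that of counting alone.

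Most of the 86 genes stood only a little higher with exercise. The median ratio of means was 1.298, and 45 genes lay between 1.2-fold and 1.3-fold, 32 between 1.3-fold and 1.5-fold, 8 between 1.5-fold and 2-fold and 1 above 2-fold. The distance between the groups was small as well. The lowest exercise value exceeded the highest control value by 1.1 times or more in 23 genes, and by less than 2% in 19.

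**Figure D1:**
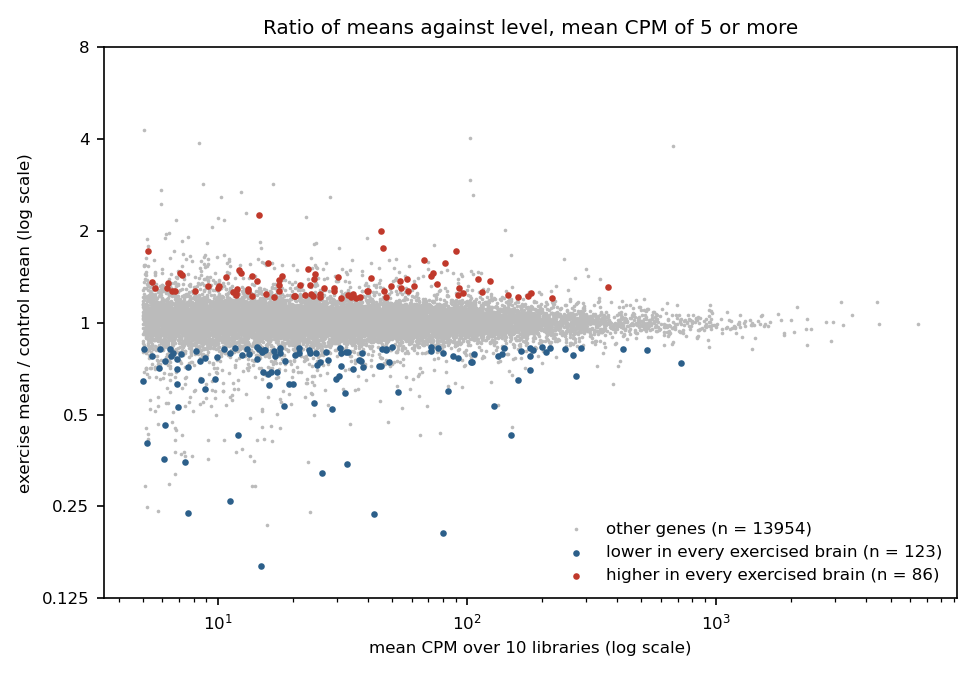
Ratio of the exercise mean to the control mean (log scale) against mean CPM over the 10 libraries (log scale) for the 14163 genes with a mean of 5 CPM or more. Red points are the 86 genes higher in every exercised brain, blue points the 123 lower in every exercised brain, grey points all others; 1 gene lies outside the plotted ratios. The red points reach 2.26 and most stay under 1.5, whereas the blue points extend to a 6.28-fold difference.

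Among the 14163 genes with a mean of at least 5 CPM, 202 (1.43%) had all exercise values above all control values, and the ratio condition left the 86 (0.607%). The mirrored choice, with all exercise values below all control values and a ratio of at least 1.2 the other way, gave 123 genes (0.868%). Sizes differed at the upper end, with 13 of those 123 genes at 2-fold or more against 1 of the 86. The median difference was close in both sets, at 1.31-fold among the 123 and 1.298-fold among the 86. A further 621 genes met the level and ratio conditions with exercise higher but had overlapping groups.

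The gene with the largest ratio was Nfu_g_1_010257 (length 3502 bp). It stood at 14.7, 21.2, 15.9, 21.5 and 28.2 CPM in exercise replicates 1 to 5 and at 6.34, 7.47, 10.2, 10.5 and 10.5 CPM in control replicates 1 to 5. The exercise libraries fell into a lower pair, replicates 1 and 3, and a higher trio, of which replicate 5 was the highest of all. The means were 20.3 ± 5.39 and 8.99 ± 1.95 CPM (SD, n = 5 each), a ratio of 2.26, on raw counts of 158 to 807.

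The gene ranked 2 by ratio had the widest distance between the groups. Its exercise values were 54.8, 64.6, 61.7, 64.2 and 54.4 CPM, and its control values 28.6, 34.0, 25.6, 29.7 and 32.8 CPM. Its lowest exercise value was 1.60 times its highest control value, and its means differed 1.99-fold. The gene ranked 3 stood at 50.6, 59.1, 57.4, 61.2 and 64.2 CPM in exercise libraries and at 28.5, 30.5, 27.3, 40.6 and 39.4 CPM in control libraries. Here the controls were split, with replicates 4 and 5 well above the other 3.

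In each of the genes ranked 4 to 6, control replicates 4 and 5 were again the highest controls. The gene ranked 5 had exercise values of 89.4, 124.5, 114, 137 and 103 CPM and control values of 51.0, 69.8, 50.5, 80.9 and 79.3 CPM. Exercise replicate 1 was the lowest of its group in the genes ranked 1, 3 and 5, and control replicate 1 or 3 was the lowest of its group in each of the genes ranked 1 to 6. The gene ranked 4 had the lowest mean CPM of the 86, at 6.62 ± 1.42 CPM in exercise and 3.84 ± 0.929 CPM in control libraries (SD, n = 5 each). The gene ranked 6 stood at 82.5 ± 13.7 and 51.4 ± 11.5 CPM (SD, n = 5 each), with a lowest exercise value only 1.03 times the highest control value.

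The genes ranked 7 to 9 had ratios of 1.57, 1.57 and 1.501. The gene ranked 7 had the smallest exercise SD relative to its mean among the 9, with 19.5 ± 1.37 CPM in exercise and 12.4 ± 1.69 CPM in control libraries (SD, n = 5 each). The gene ranked 8 stood at 92.2, 96.1, 109.9, 116 and 83.5 CPM against 61.8, 67.8, 49.99, 71.8 and 65.1 CPM. Exercise replicates 3 and 4 were its highest libraries and control replicate 3 its lowest.

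**Figure D2:**
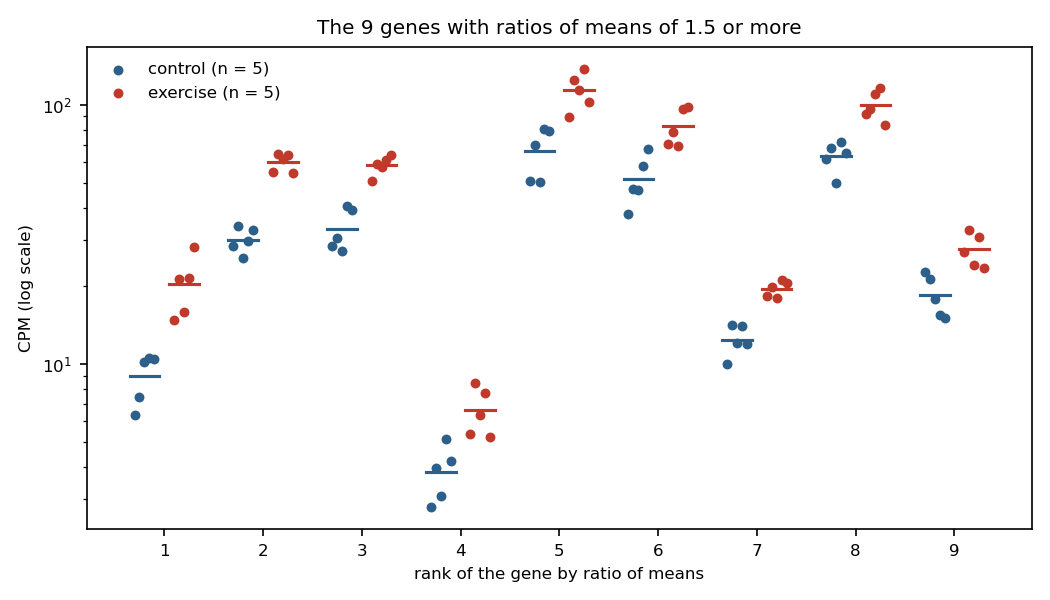
CPM (log scale) of the 9 genes with ratios of means of 1.5 or more, by rank of ratio; each point is a library (5 exercise in red, 5 control in blue) and each line a group mean. The groups do not overlap for any gene, as the choice requires, and the distance between them is widest for the gene ranked 2.

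On a scale of CPM per kilobase of gene, which allows levels to be compared between genes, the most abundant of the 86 was Nfu_g_1_011212 (length 1011 bp), at a mean of 109.7 CPM per kb over the 10 libraries. In plain CPM it stood at 166, 111, 118, 117 and 132 in exercise replicates 1 to 5 and at 79.6, 90.8, 95.3, 93.1 and 106 in control replicates 1 to 5. Exercise replicate 1 was well above the other exercise libraries, and the highest control, replicate 5, came close to the lowest exercise library. The means of 129 ± 22.2 and 92.9 ± 9.41 CPM (SD, n = 5 each) gave a ratio of 1.39, rank 23.

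The next 4 in CPM per kb had mean levels of 83.4, 75.2, 66.0 and 54.3 CPM per kb and ranks of 69, 50, 39 and 8 by ratio. The gene ranked 39 took the most counts of the 86. It stood at 408, 440, 396, 433 and 404 CPM in exercise libraries and 324, 302, 302, 316 and 341 CPM in control libraries, with means of 416 ± 19.2 and 317 ± 16.7 CPM (SD, n = 5 each). The gene ranked 50, the shortest of the 86 at 390 bp, had narrow groups, at 32.9 ± 1.15 CPM in exercise and 25.8 ± 1.099 CPM in control libraries (SD, n = 5 each). For both genes the difference of the means was several times the SD within either group, and the lowest exercise value was 1.16 and 1.17 times the highest control value.

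Levels per length of the 86 genes ran lower than those of other well expressed genes. Their median was 6.70 CPM per kb (quartiles 4.02 and 15.3), beside 11.2 CPM per kb (5.55 and 23.2) for all genes with a mean of at least 5 CPM and 10.97 CPM per kb for the 123 lower genes. In plain CPM the medians were nearer, at 25.1, 30.4 and 24.8. Length divides CPM per kb, so the lower level per length and the greater length given next are not separate observations. No test across genes was made, since genes of the same libraries are not independent.

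Gene length was not used in the choice. The median length of the 86 genes was 4230 bp (quartiles 2820 and 6119 bp), against 3077 bp (1587 and 5218 bp) for genes with a mean of at least 5 CPM and 3136 bp for the 123 lower genes. When the 14163 genes were divided by length into 4 classes of equal size, the 86 fell as 8, 19, 29 and 30 from the shortest to the longest class, or 9.30%, 22.1%, 33.7% and 34.9% of the set. The 123 lower genes fell as 36, 24, 28 and 35. Short genes were thus scarce among the higher genes, and no such scarcity was seen among the lower genes.

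Over all genes, libraries of both groups also differed in their trend with length. The slope of log2 CPM on log2 length, each taken against the average of the 10 libraries, was 0.00594 ± 0.0151 under exercise and -0.00594 ± 0.0121 without it (SD, n = 5 each), in units of log2 CPM per doubling of length. The group means mirror each other because slopes were taken against the average of the 10 libraries. The groups overlapped, at -0.0177 to 0.0238 under exercise and -0.0193 to 0.0105 without it. Exercise replicate 5, at -0.0177, lay on the side of control replicates 1, 2 and 3, while control replicates 4 and 5 had positive slopes. The median log2 ratio of all 14163 genes went from -0.01 in the shortest class to 0.03 in the longest. For the 86 genes it was 0.40 in the shortest class and 0.38 in the longest. The ratio condition of the choice keeps these values high, so they cannot be weighed against the trend. The part of the length trend in the make-up of the set was not tested. The median length of the genes chosen without each library in turn ranged from 3570 bp (without exercise replicate 4) to 4620 bp (without control replicate 5).

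In edgeR's quasi-likelihood fit of exercise against control over 19325 genes, 12 of the 86 had a Benjamini-Hochberg adjusted p below 0.05, and these were all of the 12 genes called higher in that fit (0.0621% of those tested). DESeq2 placed 69 of the 86 past the same threshold, with 166 higher calls in all (0.955%). The fits compare the same groups that chose the genes, so nothing is read from these counts. The 12 genes had ratios from 1.27 to 1.99 and mean levels from 16.0 to 367 CPM, and 3 of them were among the 10 largest ratios. The largest ratio itself, that of Nfu_g_1_010257, was not among them. The median fitted log2 fold change was 0.36 for the 86 and 0.00 for all tested genes.

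Each library was also left out in turn, the genes were chosen on the other 9, and the position of the left-out library was read at those genes. Only the left-out library had no part in the choice. It is placed against the 9 libraries whose values chose the genes, so part of its difference from the other group comes from the choice itself, and the share over all tested genes is given as a description and not as the share that no difference would give. For 7 of the 10 libraries, the left-out library lay nearer to its own group at 68.5% to 85.7% of the chosen genes, against 54.1% to 63.6% over all tested genes with a mean of at least 5 CPM. The difference between groups at the chosen genes, a median log2 value of 0.36 to 0.38 in the 9 libraries used, was 0.31 to 0.38 in these left-out libraries.

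The other 3 libraries had lower shares. Exercise replicate 5 lay nearer to its own group at 86 of 251 genes (34.3%), against 38.7% over all tested genes of that level. Its median log2 difference from the controls at these genes was 0.06, where the 9 libraries used had 0.36. Control replicate 1 lay nearer to its own group at 80 of 163 genes (49.1%) and control replicate 2 at 74 of 152 (48.7%), against 49.9% and 51.8%. Their median log2 differences were 0.18 and 0.19, again with 0.35 and 0.37 in the libraries used. A second measure was the share of genes at which the left-out library lay beyond every library of the other group. It was 34.3%, 57.7% and 64.5% for exercise replicate 5 and control replicates 1 and 2, against 16.3%, 11.8% and 13.6%. In the remaining libraries it was 72.7% to 84.7%, against 19.0% to 26.5%. This measure repeats the condition of separate groups used in the choice. The other 9 libraries were already separate at the chosen genes and were not required to be so over all genes. The distance between the 2 shares therefore comes in part from the choice, and nothing is read from it. Genes of 1 library are not independent, so no p-value is attached to these shares. For the lower genes, exercise replicate 5 lay nearer to its own group at 40.5% of 269 genes, against 38.7% over all tested genes of that level. Control replicates 1 and 2 did so at 70.6% of 170 and 64.2% of 176 lower genes, against 49.9% and 51.8%.

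**Figure D3:**
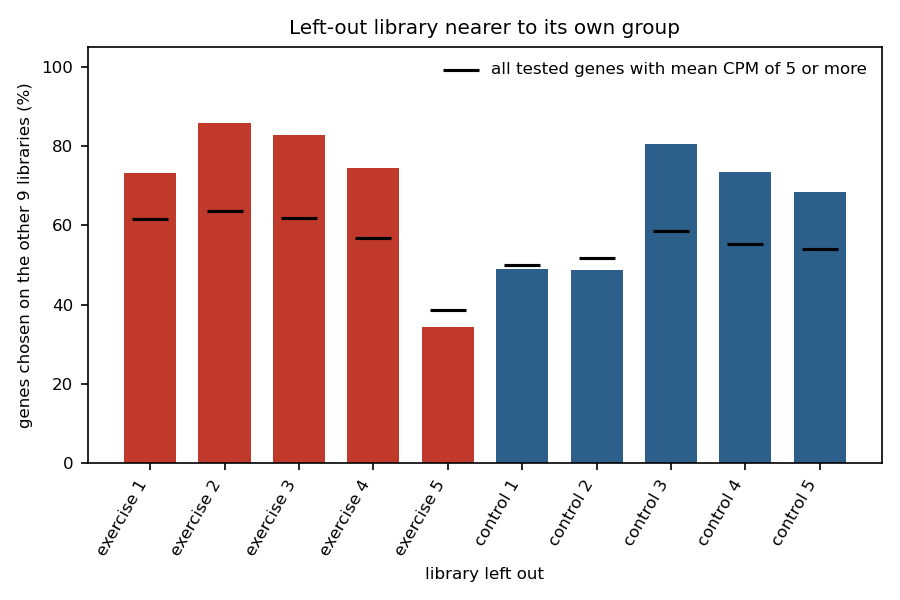
Share (%) of the genes chosen on the other 9 libraries at which the left-out library lay nearer to its own group. Bars are libraries (red exercise, blue control) and black marks the same share over all tested genes with a mean of 5 CPM or more. Exercise 5, control 1 and control 2 lie below their marks, at 34.3%, 49.1% and 48.7%.

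The size of the set followed the same libraries. Omitting a library can only loosen the condition of separate groups, so this count overlaps with the shares above and is no separate observation. Leaving out exercise replicate 5 raised the number of genes chosen from 86 to 251, and leaving out control replicate 1 or 2 raised it to 163 or 152, while the other omissions gave 98 to 121. Of the 86 genes, 65 were chosen in every one of the 10 omissions. The losses were largest without control replicate 5 (8 genes) and control replicate 4 (7 genes), and were 0 without control replicate 2. Without exercise replicates 1 to 5 they were 5, 6, 3, 4 and 3 genes. All but 1 of the genes lost ranked 53 or lower by ratio. The exception was the gene ranked 4, whose mean went below 5 CPM without exercise replicate 2 or 4.

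The library that set the edge of a group was counted for each gene. Exercise replicate 5 was the lowest exercise library in 33 of the 86 genes (38.4%), close to its share of 36.7% among all 14163 genes. Control replicate 2 was the highest control in 26 genes (30.2%, against 16.3% of all) and control replicate 3 in 8 (9.30%, against 21.8%). Within the 86 genes, control values were more scattered than exercise values. The ratio of highest to lowest library was wider in controls than in exercise libraries for 62 of the 86 genes (72.1%), beside 50.9% of all genes of that level and 44.7% of the 123 lower genes. In controls that ratio reached 1.5 or more for 17.4% of the 86 genes, against 19.5% of all genes of that level. In exercise libraries it did so for 3.49%, against 19.5%, so exercise values were the narrow ones beside all genes. The choice itself used these values, so the counts are descriptive.

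In a few genes the control mean was low because of 1 or 2 control libraries. The gene ranked 21 stood at 42.4, 41.3, 37.1, 37.6 and 13.5 CPM in control replicates 1 to 5 and at 42.6 to 61.1 CPM in exercise libraries. Control replicate 5 was far below everything else, and without it the ratio went from 1.402 to 1.22. The gene ranked 34 was split in the controls, at 24.4, 24.2 and 24.9 CPM in replicates 1, 2 and 5 and at 13.4 and 13.5 CPM in replicates 3 and 4, while the exercise libraries spanned only 26.0 to 27.5 CPM. The upper controls of this gene lay just under the exercise libraries.

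Similar shapes were seen in the genes ranked 53, 69 and 75. The gene ranked 53 had 21.9 CPM in control replicate 5 and 33.4 to 41.0 CPM in the other controls, and its ratio of 1.27 was 1.16 without that library. The gene ranked 69 had 94.8 CPM in control replicate 5 and 136 to 144 CPM in the others, with a ratio of 1.23 that was 1.15 without it. The gene ranked 75 was lowest in control replicate 4, at 15.3 CPM, and its ratio went from 1.23 to 1.14 without it. These last 3 genes would not have been chosen without those libraries. A high exercise library could do the same: the gene ranked 57 had a ratio of 1.27, and of 1.19 without exercise replicate 1. It would not have been chosen without that library. A step of 1.5 times or more between neighbouring control values occurred in 3 of the 86 genes, and between neighbouring exercise values in 0. The choice set a bound on high control values and on low exercise values, and none on low control or high exercise values. No share over all genes is given beside this count, so it is descriptive.

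With the group means removed, the 86 genes did not move as a single unit. The median correlation between pairs of them across the 10 libraries was 0.060 over 3655 pairs, beside 0.004 for all genes with a mean of at least 5 CPM and 0.093 for the 123 lower genes. A correlation above 0.7 was found in 4.38% of pairs, against 4.39% over all genes of that level. These correlations rest on 10 libraries and share their scaling.

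Grouping the genes by these correlations into 3 blocks gave 36, 31 and 19 genes, described here without a test because the blocks were made from the same values. The block of 31 genes held 8 of the 10 largest ratios and had a median ratio of 1.37, against 1.29 and 1.27 in the others. Its genes were high in exercise replicates 2 and 4 (above the exercise mean in 28 and 27 of 31 genes). They were low in exercise replicates 1, 5 and 3 (above it in 3, 8 and 9). Among controls they were high in replicates 4 and 5 (28 and 20 of 31, median log2 deviations of 0.09 and 0.11). They were low in control replicates 1 and 3 (8 and 7 of 31, medians of -0.09 and -0.06). Control replicate 2 lay between (20 of 31, median of 0.04). Single genes departed from this profile: those ranked 1, 3, 6 and 61 were highest of the exercise libraries in replicate 5. The block as a whole thus held most of the largest ratios and also showed a difference among libraries within both groups.

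That difference followed the main axis between libraries. The first component of all tested genes, with group means removed, took 29.1% of the variance. Far on its negative side lay exercise replicates 4 and 2 and control replicates 5 and 4 (scores of -29.8, -22.2, -30.5 and -21.1). Its positive side held exercise replicates 5 and 1 (45.1 and 9.23) and control replicates 1 to 3 (12.3 to 22.1). Exercise replicate 3 lay near the middle, at -2.31. The median correlation with this component was -0.61 in the block of 31 genes, 0.16 in the block of 36 and 0.38 in the block of 19. Within the block of 31, the genes ranked 1 and 7 had -0.05 and -0.14, and those ranked 4 and 5 had -0.82 and -0.76. The 4 libraries with the lowest scores were also among those with positive length slopes, from 0.0014 to 0.0238. The part of these slopes in the block was not tested. Over the whole set, 13 of 86 genes (15.1%) had a correlation beyond 0.7 in size with this axis. The share was 20.1% among all genes of that level and 8.94% among the 123 lower genes. The axis divides libraries within both groups, and the choice required groups that do not overlap, so these shares are descriptive.

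The remaining blocks were set apart mainly by their controls. In the block of 36 genes control replicate 2 was above the control mean in 32 genes, with a median deviation of 0.14 on the log2 scale, and control replicate 4 in 3 genes, with a median of -0.12. In the block of 19 genes control replicate 5 was below the control mean in every gene, with a median deviation of -0.19. The exercise libraries of that block deviated by medians of only -0.02 to 0.02. The genes ranked 21, 53 and 69, described above, belonged to it.

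**Figure D4:**
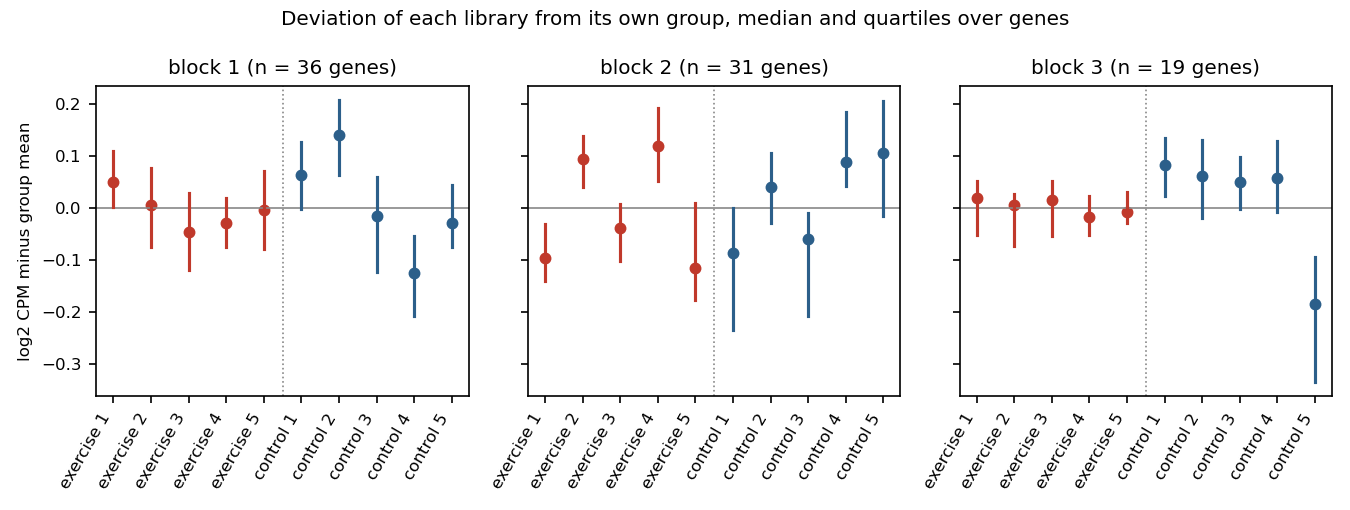
Deviation of log2 CPM from the mean of the library's own group in the 3 blocks of genes; points are medians and bars quartiles over the genes of the block, red for exercise and blue for control libraries. In the block of 19 genes control 5 lies lowest, at -0.19, and in the block of 31 genes exercise 2 and 4 lie above exercise 1, 3 and 5.

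**Figure D5:**
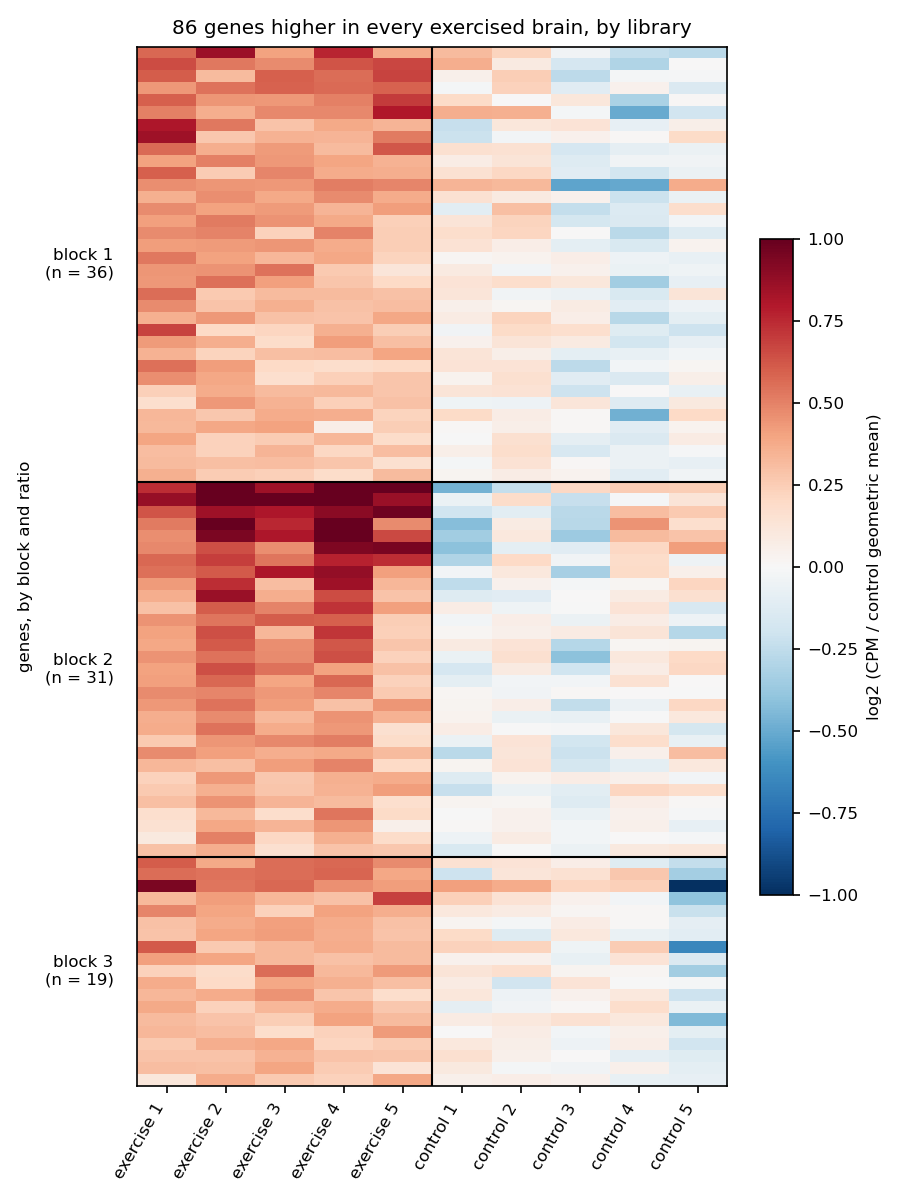
Level of each of the 86 genes (rows, by block and then ratio) in each library (columns) as log2 of CPM over the geometric mean of the controls; colours are limited to values from -1 to 1. Exercise columns are above 0 in every row, and the darkest red cells lie mostly in the upper rows of the block of 31 genes.

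By library, the median log2 level of the 86 genes over the control mean was 0.41, 0.42, 0.39, 0.38 and 0.31 in exercise replicates 1 to 5. It was 0.04, 0.08, -0.03, 0.00 and -0.03 in control replicates 1 to 5. Exercise replicate 5 was the lowest exercise library and control replicate 2 the highest control. Both stayed on the side of their own group, as the choice requires.

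The genes nearest to each limit were as follows. The smallest ratio inside the set was 1.21 (34.0 ± 1.62 against 28.2 ± 1.38 CPM) and the nearest outside was 1.197 (18.8 ± 1.08 against 15.7 ± 1.004 CPM; SD, n = 5 each). By level, the nearest gene inside had a mean of 5.23 CPM and the nearest outside 4.84 CPM. The smallest separation inside was between 11.25 CPM, the lowest exercise value, and 11.24 CPM, the highest control value. The gene just outside had 31.85 and 31.87 CPM there. Below the limit on level, 45 further genes met the other conditions, and 116 genes with separate groups missed the limit on the ratio. In the table, 1 pair of the 86 genes stood in neighbouring rows, the genes ranked 41 and 71, and their within-group correlation was -0.02. Whether neighbouring rows are neighbours in the genome is not given in the sources used here.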

How the data were processed

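The authors deposited 1 table of raw counts per gene and 1 table of RPKM values (reads per kilobase of gene and per 1000000 reads), each with 1 column per library. Per the submitters' processing notes, the tools were featureCounts 1.4.6-p4, STAR 2.4.1d and bcl2fastq 1.8.4; for genome build and annotation, nothing is given in the sources used here. Per the labels' protocols, libraries were made with Illumina's TruSeq kit, version 2, which does not keep strand, so overlapping or near-identical genes may share reads. The deposited RPKM values had been divided by library totals applied in turn down the table, so they served only to recover gene lengths (22897 genes; 99.988% of values above 0 were matched within 0.0011) and never as levels.

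CPM was the count times 1000000 over the column sum. The choice of genes and the lists were made with earlier results of these data known. Genes were fitted with edgeR 4.0.16 in R 4.3.3 (filterByExpr, TMM scaling, robust quasi-likelihood F test, Benjamini-Hochberg adjustment over all tested genes), with DESeq2 1.42.0 and limma 3.58.1 (voom with sample weights) as alternatives. DESeq2 gave an adjusted p for 17382 genes. For within-group correlations, log2 CPM with TMM scaling and a prior count of 2 was centred on each group's mean, and blocks came from average linkage in scipy 1.17.1. Left-out libraries were placed on log2(CPM + 0.5) by distance to the group means, and against the far edge of the other group. The scripts were tested on simulated data. Genes were named by a fixed rule: the largest ratio and the highest CPM per kb; genes shown by rank for split controls were chosen after their values were seen. Gene lists could not be scored, for lack of names. Counts carry no molecular identifiers, so PCR duplication is not covered.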

Additional observations from a re-analysis of the deposited data

Results flagged for a closer look

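Single libraries far from the rest of their group were sought with Dixon's 95% limit for 5 values (gap over range above 0.71), which chance exceeds in about 1 of 20 groups. Exercise replicate 2 was the deepest library, at 38.1 M counts (M, 1000000). Among the 172 groups of 5 values of the 86 genes, 12 were past the limit. The rate of 1 of 20 is for values that no rule has chosen, whereas the choice used these values. No share over all genes is given beside the 12, so they are a description. The limit is relative to the range of the group, so a library can pass it by a small difference in CPM. Exercise replicate 5 was far below the other exercise libraries at the genes ranked 18, 30 and 85 by ratio (19.2, 6.42 and 36.2 CPM) and far above them at the gene ranked 19 (15.2 CPM). Exercise replicate 1 was far above at the genes ranked 21, 49 and 57 (61.1, 17.2 and 9.23 CPM). Exercise replicate 3 was past the limit on the high side at the gene ranked 74, at 23.3 CPM. The other exercise libraries of that gene spanned 22.2 to 22.4 CPM, so the departure was small and the group narrow. Control replicate 5 was far below the other controls at the genes ranked 21 and 69 (13.5 and 94.8 CPM), control replicate 3 at the gene ranked 64 (28.3 CPM) and control replicate 4 at the gene ranked 76 (16.7 CPM). All 4 control values past the limit were low ones. Of the exercise values past the limit, 3 were low, all in replicate 5, and the others were high. The choice bounded high control values and low exercise values alike. The cause was not tested.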

How the results depend on the processing

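The number of genes chosen was 83 to 89 under 3 other scalings and thinning to the smallest library (74 to 80 of them among the 86), and 70 of the 86 were chosen under all 4. It was 117 with a mean of at least 1 CPM, 53 with at least 20 CPM, 202 with no ratio minimum and 9 with a ratio of at least 1.5. Leaving out each library gave 98 to 251. Of the 86 genes, edgeR called 11 to 14 under other scalings and filters, DESeq2 69 and voom 26, with 1 to 16 when a library was left out. The genes called higher among all tested genes were also 11 to 14 under those scalings and filters. They were 166 by DESeq2 (0.955%), 32 by voom and 1 to 27 when a library was left out. The cause was not tested. The fitted log2 fold change of Nfu_g_1_010257 ranged from 1.01 to 1.26 and that of Nfu_g_1_011212 from 0.36 to 0.51 over 16 alternatives, past the threshold in 2 and 1 of them and not in the fit reported. The median within-group correlation was 0.101 with library totals in place of TMM and 0.020 to 0.081 when a library was left out, so its size depends on the scaling. The median length, an alternative added after seeing the data, was 3897 to 4501 bp under the other settings of the choice. No paired analysis was made, because the labels tie no exercise library to a control library. The library numbers of exercise and control form separate runs, so any effect of that order could not be told apart from exercise. Libraries of 5 and 5 and totals from 21.2 M (M, 1000000) limit what can be separated among genes near 5 CPM.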
